A study of Homo sapiens with 66 samples.

Results

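Frizzled proteins are the cell surface receptors for Wnt ligands. They carry an extracellular cysteine-rich domain that binds the ligand and 7 membrane-spanning segments, and with the co-receptors LRP5 and LRP6 they keep beta-catenin from being degraded, while with ROR, RYK, PTK7 and VANGL proteins they act in planar cell polarity and other beta-catenin-independent responses. In the intestine Wnt signalling maintains the stem cells of the crypt, and the ubiquitin ligases RNF43 and ZNRF3 remove Frizzled receptors from the surface. The family also differs in gene structure, because some Frizzled genes have their whole coding sequence in 1 exon and others are spliced. The levels of FZD1 to FZD8 were followed here in DLD-1 cells, a human colorectal adenocarcinoma line, from which proteins of mRNA export and of the nuclear pore had been removed. These 8 genes, matched by symbol to their Ensembl identifiers, were 8 of the 58051 genes in the count tables, and all 8 were among the 17812 genes whose counts were high enough to test.

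Total RNA was sequenced from 66 libraries, in 22 groups of 3. Each tagged line carries an auxin-inducible degron (AID) on both alleles of 1 gene and expresses the ubiquitin ligase adaptor TIR1 from the RCC1 locus, so that 1 mM auxin leads to degradation of the tagged protein; untreated groups carry the tag and TIR1 as well. AID-FLAG-NXF1 cells (NXF1, the main mRNA export receptor) and DLD-1 cells labelled original, which have no tag, were untreated or given auxin for 2 h, and AID-HA-GANP1 cells (GANP, the scaffold of the TREX-2 export complex) were untreated or given auxin for 3 h. AID-NeonGreen-TPR cells (TPR, a protein of the nuclear basket) formed a first set with an untreated and a 2 h auxin group, and a second set, whose replicates are labelled old, with untreated, 2 h and 8 h auxin groups; in addition the AID-NeonGreen-TPR line was given actinomycin D (ActD), an inhibitor of transcription, for 2 h with or without auxin. NUP153-NeonGreen-AID and GAP1-NeonGreen-AID cells (RANGAP1, the activator of the Ran GTPase) were untreated or given auxin for 2 h or 8 h, and NUP50-NeonGreen-AID cells for 3 h or 9 h. Auxin groups were compared with the untreated group of their own line and label set. The labels do not say how replicates were obtained, and the study's methods describe them as independent biological replicates.

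Of the 8 genes, FZD1 (ENSG00000157240, chr7:91264433-91271326), FZD2 (ENSG00000180340, chr17:44557484-44561262), FZD7 (ENSG00000155760, chr2:202033855-202038441) and FZD8 (ENSG00000177283, chr10:35638247-35642296) have 1 exon in GRCh38. FZD5 (ENSG00000163251, chr2:207762598-207769906) has 2 exons, but its intron of 270 bases lies in the 5′ leader and its coding sequence is in 1 exon; it is therefore counted with the genes without a coding intron, although its transcript is not intronless. FZD4 (ENSG00000174804, chr11:86945679-86955395) has 2 exons, both coding, separated by an intron of 2330 bases. FZD3 (ENSG00000104290) and FZD6 (ENSG00000164930) have 8 and 7 exons, of which 6 are coding in each. The grouping thus set 5 genes without an intron in the coding sequence against 3 genes with at least 1.

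The difference is visible where the FZD4 intron falls, after 285 of its 1611 coding bases. The sequences below are from GRCh38, 5′ to 3′ on the coding strand. The first pair shows both ends of the FZD4 intron, at chr11:86954781-86954830 and chr11:86952441-86952490 (minus strand), with exon bases in capitals.
FZD4 exon 1 into intron: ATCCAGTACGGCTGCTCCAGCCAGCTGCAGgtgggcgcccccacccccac
FZD4 intron into exon 2: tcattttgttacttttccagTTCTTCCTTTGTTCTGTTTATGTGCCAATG
The next lines show the stretch of 60 bases at the same place, aligned through the translated proteins, in the genes that are not interrupted there. Capitals mark the bases that correspond to exon 2 of FZD4. The positions are chr7:91265349-91265408 (plus), chr17:44557926-44557985 (plus), chr2:202034915-202034974 (plus), chr10:35641145-35641204 (minus) and chr2:207768461-207768520 (minus).
FZD1: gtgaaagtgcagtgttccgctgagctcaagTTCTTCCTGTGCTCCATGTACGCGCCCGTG
FZD2: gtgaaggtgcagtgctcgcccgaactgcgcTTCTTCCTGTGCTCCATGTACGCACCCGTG
FZD7: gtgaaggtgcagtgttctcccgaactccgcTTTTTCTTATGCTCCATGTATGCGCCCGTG
FZD8: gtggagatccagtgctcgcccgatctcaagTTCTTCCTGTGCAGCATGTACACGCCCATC
FZD5: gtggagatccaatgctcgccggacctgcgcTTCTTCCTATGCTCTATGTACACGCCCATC
Of the 28 pairs of members, 4 shared any identical stretch of 50 bases in their exons, at most 32 such stretches (FZD1 with FZD2), against at least 3730 stretches in a member.

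The exons of FZD4 overlap those of PRSS23, a protease gene on the opposite strand, by 1399 bases, and those of FZD6 overlap the antisense RNA gene BAALC-AS1 by 138 bases. The study's methods name a stranded library kit and the labels a standard one. The strand setting of the counting is not given in the sources used here. The FZD4 values fell into sets. In the 24 libraries that hold no mitochondrial counts (AID-NeonGreen-TPR without the label old, AID-FLAG-NXF1, AID-HA-GANP1 and DLD-1) FZD4 lay between 29.8 and 60.5 CPM (counts relative to the library's scaled total), and in the 9 GAP1-NeonGreen-AID libraries between 34.2 and 46.2 CPM. In the other 33 libraries it lay between 3.00 and 12.9 CPM, while PRSS23 was high in all sets, at 428 to 1017 CPM. Comparisons of an auxin group with its own untreated group stay within a set. In the lines without mitochondrial counts the log2 fold change of PRSS23 after auxin was 0.02 (GANP), 0.08 (NXF1), -0.01 (TPR) and 0.03 (DLD-1). That of FZD4 was 0.12, 0.08, 0.03 and 0.03. Whether reads of PRSS23 were counted for FZD4 was not tested, so the FZD4 values of these lines may not be those of FZD4 alone. Levels of FZD4 were compared across sets only in an alternative for ActD against untreated cells, which is marked as such.

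**Figure D1:**
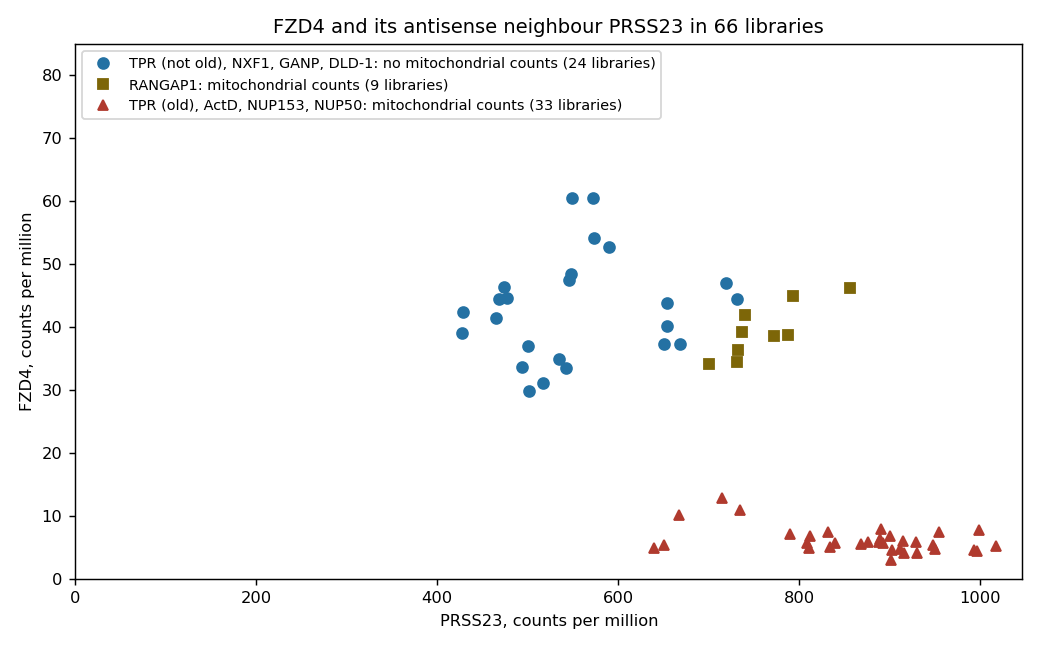
FZD4 (y axis) against its antisense neighbour PRSS23 (x axis), both in CPM, in 66 libraries, marked by library set. FZD4 is at 12.9 CPM or lower in 33 libraries and at 29.8 CPM or higher in the rest, with PRSS23 at 428 CPM or higher in each.

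Library totals ranged from 18943661 to 55411411 counts (median 32285399.5). The epithelial genes EPCAM, CDH1, KRT8, KRT18, KRT19, KRT20, CDX2 and VIL1 were counted in every library, CDX1 and LGALS4 stayed at or below 0.702 CPM, summed markers of blood, endothelium and liver stayed at or below 0.942 CPM, and the 3 markers of fibroblasts and muscle together had a sum of 1.29 to 8.5 CPM. Their part in the results was not tested. The RNA of the tagged genes was not called lower in any auxin comparison, which says nothing about the proteins, since the degron acts on protein. In the old set the auxin libraries labelled old2 stood apart: over 12189 genes the 2 h library old2 deviated from the mean of the set in the same direction as the 8 h libraries old1 and old3 (r = 0.63 and 0.78) and opposite to the 2 h libraries old1 and old3 (r = -0.362 and -0.365), while the 8 h library old2 deviated with the 2 h library old3 (r = 0.49). CYP1A1 had 420.5, 44.4 and 348.5 CPM in the 2 h libraries and 89.1, 281.9 and 41.2 CPM in the 8 h libraries. The other lines differed in its time course. The mean was 264.4 CPM at 2 h and 48.7 CPM at 8 h in the NUP153 line, and 416.6 CPM at 3 h and 17.9 CPM at 9 h in the NUP50 line. It was 147.6 CPM at 2 h and 194.8 CPM at 8 h in the RANGAP1 line. The labels were kept, and results of this set are given with and without these libraries. In DLD-1 cells CYP1A1 was lower in the libraries labelled auxin (9.55 to 14.5 CPM) than in those labelled untreated (171 to 201 CPM), whereas the mean was higher after auxin in each tagged line. These labels were kept too; if they were exchanged, every DLD-1 value below would turn its sign.

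In untreated cells the 8 genes covered a wide range of levels. Per kilobase of exon, the median over the 8 untreated groups was 11.1 CPM for FZD6 (chr8:103298433-103332866), 9.15 for FZD7, 2.11 for FZD3 (chr8:28494205-28574267), 2.00 for FZD5, 1.16 for FZD2, 0.540 for FZD1 and 0.393 for FZD8. The spread over the groups was wide: FZD6 ranged from 7.31 to 15.04 and FZD7 from 7.31 to 11.8 CPM per kilobase, so these neighbours overlapped, as did all other neighbours in this order except FZD7 and FZD3. FZD4 was left out of this order, since its level went with the library sets described above. It had 4.498 to 7.30 CPM per kilobase in 5 untreated groups, more than FZD3 and FZD5 in each. In the NUP50, NUP153 and old AID-NeonGreen-TPR groups it had 0.643, 0.762 and 1.04, less than FZD3 and FZD5 in each. FZD6 and FZD7 thus had the highest median levels, 1 of them with and 1 without coding introns, and the genes with the lowest median levels (FZD2, FZD1 and FZD8) all had 1 exon. Other relatives were scarce: FZD10 had 0 counts in all libraries, FZD9 at most 18 counts and SMO, the Hedgehog pathway member of the family, at most 51 counts in a library.

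**Figure D2:**
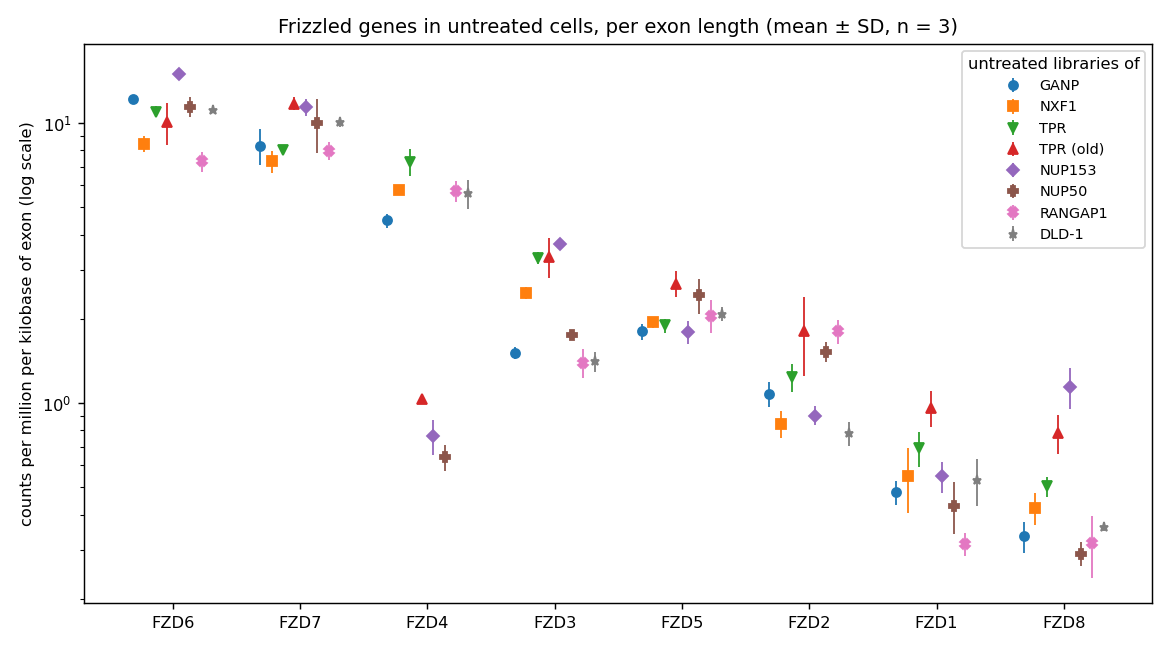
Level of each Frizzled gene in untreated cells, in CPM per kilobase of exon on a log scale; each symbol is the mean of 3 libraries of a line and whiskers are ± SD. FZD6 and FZD7 lie highest (medians 11.1 and 9.15) and FZD8 lowest (0.393), and FZD4 splits into high and low groups by library set.

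A gene was called changed in a comparison of a treated with an untreated group when the adjusted p (edgeR's quasi-likelihood test over all tested genes, Benjamini-Hochberg) was under 0.05 and the fold change was at least 1.3 or at most 0.7, that is, a log2 fold change of at least 0.38 or at most -0.52. Values below are log2 fold changes with their standard error (SE), 3 libraries against 3. Fold changes were estimated after TMM scaling of the libraries. CPM values, and statements on whether groups overlap, use library totals alone and can differ from the fold changes. Over the 12 auxin comparisons FZD7 was called 5 times, FZD2 3 times, FZD1, FZD5 and FZD8 2 times each, FZD6 once, and FZD3 and FZD4 in none. The calls of FZD1, FZD2, FZD5, FZD7 and FZD8 were all decreases, and the call of FZD6 was an increase.

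**Figure D3:**
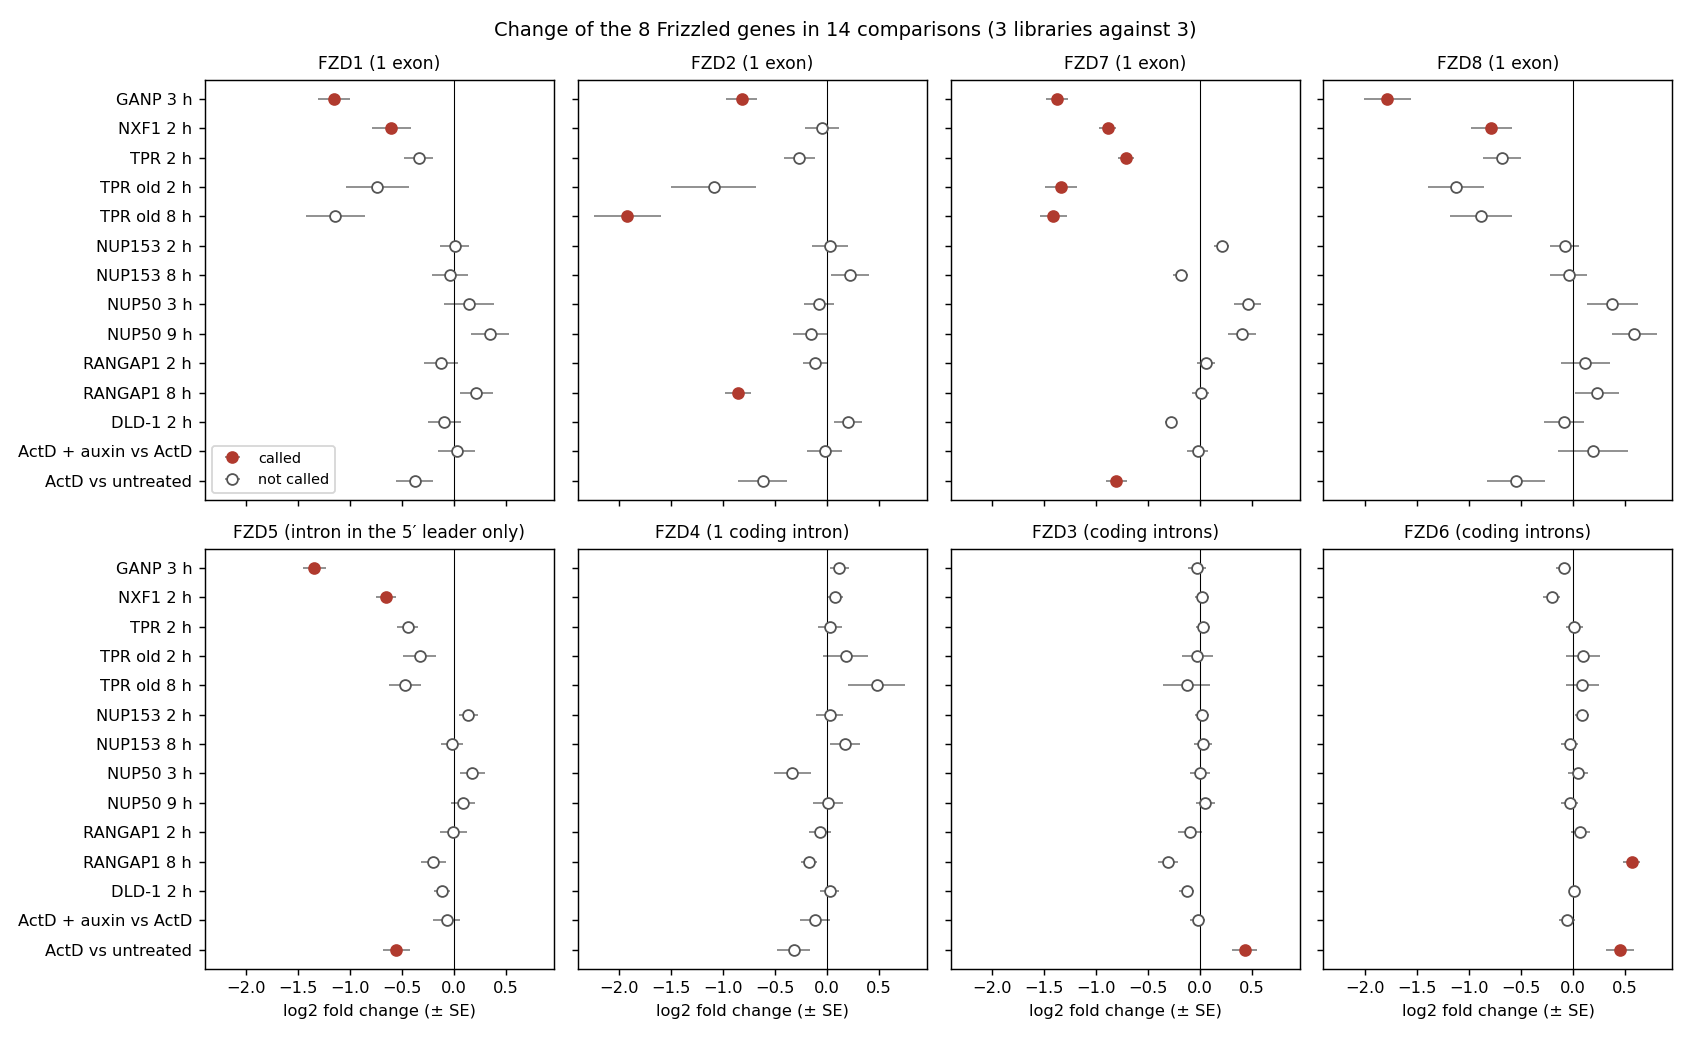
Log2 fold change ± SE (x axis) of each Frizzled gene in 14 comparisons (y axis), 3 libraries against 3; filled symbols passed the call rule. In the GANP comparison the 5 genes without a coding intron lie between -1.78 and -0.82 and the 3 with coding introns between -0.08 and 0.12.

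The most extensive change followed loss of GANP. FZD7, a receptor known from intestinal stem cells, had 44.5, 34.4 and 35.3 CPM in untreated AID-HA-GANP1 cells and 14.3, 12.9 and 13.5 CPM after 3 h of auxin, a log2 fold change of -1.37 (SE 0.10, adjusted p = 8.9e-06). FZD5, a receptor with roles in Paneth cell maturation, went from 12.96, 11.8 and 13.4 CPM to 4.69, 5.09 and 4.19 CPM (-1.34, SE 0.11, adjusted p = 1.17e-05). In both genes every auxin library was well below every untreated library. FZD8, the closest relative of FZD5, was the least abundant member, with 38, 49 and 38 counts in the untreated and 14, 17 and 17 counts in the auxin libraries, or 1.42, 1.49 and 1.16 against 0.305, 0.433 and 0.358 CPM. Its log2 fold change of -1.78 (SE 0.22, adjusted p = 0.000211) was the lowest of the 8 genes and had the largest error. FZD1 and FZD2, close relatives of FZD7, also fell: FZD1 from 3.05, 3.23 and 3.68 to 1.24, 1.48 and 1.45 CPM (-1.15, SE 0.15, adjusted p = 0.000323), and FZD2 from 4.02, 3.71 and 4.53 to 2.03, 2.47 and 1.98 CPM (-0.82, SE 0.15, adjusted p = 0.00197). All 5 genes without a coding intron were thus called lower, where 11.5% of all tested genes were called lower, and in all 5 the groups did not overlap, as in 32.8% of all tested genes in that direction.

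The Frizzled genes with coding introns did not pass in this comparison. FZD6 had 47.7, 51.6 and 49.03 CPM untreated and 45.1, 44.6 and 40.3 CPM after auxin (log2 fold change -0.08, SE 0.07), and although its auxin libraries were all lower the shift was small. FZD3 (-0.03, SE 0.09) and FZD4 (0.12, SE 0.09), the receptor for the ligand Norrin, had overlapping groups. The median log2 fold change was -1.34 over the 5 genes without and -0.03 over the 3 genes with coding introns, beside 0.01 over all tested genes. Leaving out any 1 library left 5 calls.

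Loss of NXF1 gave calls in 4 of the same 5 genes. FZD7 had 32.9, 36.8 and 30.9 CPM in untreated AID-FLAG-NXF1 cells and 16.1, 18.6 and 17.5 CPM after 2 h of auxin (-0.89, SE 0.08, adjusted p = 2.54e-05). FZD5 went from 13.1, 14.4 and 13.5 to 7.14, 8.78 and 9.08 CPM (-0.65, SE 0.10, adjusted p = 0.000668). These groups were far apart, whereas the calls of FZD8 (-0.78, SE 0.19, adjusted p = 0.0147) and FZD1 (-0.60, SE 0.19, adjusted p = 0.0418) were less firm. FZD8 had 1.57, 1.59 and 1.98 CPM untreated and 1.10, 0.806 and 0.980 CPM after auxin, FZD1 3.36, 3.08 and 4.91 against 2.29, 2.03 and 2.86 CPM, and without auxin replicate 2 or without untreated replicate 3 neither was called, which left 2 calls. FZD2 had overlapping groups, at 3.45, 2.79 and 3.35 CPM untreated and 3.35, 3.14 and 2.46 CPM after auxin (-0.05, SE 0.16, adjusted p = 0.87). FZD6 was lower in every auxin library (26.8 to 31.3 against 31.8 to 36.3 CPM) but did not pass (-0.20, SE 0.08, adjusted p = 0.093). Groups did not overlap in this direction in 4 of the 5 genes without and 1 of the 3 with coding introns. The share over all tested genes was 26.9%. Called lower were 4 of 5 genes without a coding intron, beside 5.93% of all tested genes, and none of the 3 with coding introns.

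After 2 h without TPR, FZD7 alone was called. It had 37.2, 37.5 and 35.6 CPM in untreated AID-NeonGreen-TPR cells and 22.5, 20.4 and 23.2 CPM after auxin (-0.71, SE 0.08, adjusted p = 0.00568), where 0.404% of all tested genes were called lower. FZD8 had 2.24, 1.94 and 1.96 CPM untreated and 1.18, 1.11 and 1.46 CPM after auxin, with a log2 fold change of -0.68 (SE 0.18) that did not pass (adjusted p = 0.165). Replicate numbers paired the libraries of this comparison, and with the replicate number as a block FZD8 passed as well (-0.68, adjusted p = 0.0070). The share of 0.404% is that of the fit without the block. Over all genes the calls of this comparison moved with the alternatives too, as given in the closing paragraph. FZD5 had 14.2, 13.2 and 12.6 against 9.68, 8.67 and 10.5 CPM (-0.45, SE 0.10, adjusted p = 0.0982), with groups apart but a fold short of the threshold. FZD1 had a log2 fold change of -0.34 (SE 0.14) and FZD2 of -0.26 (SE 0.15), and FZD3, FZD4 and FZD6 lay between 0.01 and 0.03. In 4 of the 5 genes without a coding intron all auxin libraries were below all untreated libraries, which held for 11.1% of all tested genes.

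The old set of AID-NeonGreen-TPR libraries had higher FZD7 levels in untreated cells than the first set, and wider errors. FZD7 had 51.0, 56.7 and 54.0 CPM untreated, 21.3, 15.4 and 23.2 CPM after 2 h and 16.8, 20.2 and 18.6 CPM after 8 h of auxin. The log2 fold change was -1.33 (SE 0.15, adjusted p = 0.0102) at 2 h and -1.41 (SE 0.13, adjusted p = 0.0032) at 8 h, and every auxin library was below every untreated library. At 2 h FZD7 was the 1 member called, beside 0.309% of all tested genes called lower. FZD2 had 5.27, 6.02 and 9.31 CPM untreated, 2.79, 1.23 and 5.15 CPM at 2 h and 1.21, 2.38 and 1.403 CPM at 8 h; it was called at 8 h (-1.92, SE 0.33, adjusted p = 0.0223) and not at 2 h (-1.09, SE 0.41, adjusted p = 0.351). The 2 h library old2 was the lowest of its group in FZD1, FZD2, FZD3, FZD7 and FZD8, and not in FZD4, FZD5 and FZD6. At 8 h the 2 calls among the 5 genes without a coding intron stood beside 2.36% of all tested genes called lower, and the groups of all 5 did not overlap at either time, as in 16.0% (2 h) and 22.7% (8 h) of all tested genes in that direction.

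The calls of this set depended on single libraries. Over all tested genes the number of calls at 8 h also varied widely with the library left out, as given in the closing paragraph. The counts of members below are thus not particular to the family. Without the 2 h auxin library old2, FZD7 was still called at 2 h (-1.21, adjusted p = 0.00517). Without the 8 h auxin library old2, 6 members were called at 8 h: FZD7 (-1.48, adjusted p = 8.5e-05), FZD2 (-2.27, adjusted p = 0.000774), FZD1 (-1.43, adjusted p = 0.00344), FZD8 (-1.04, adjusted p = 0.0324) and FZD5 (-0.52, adjusted p = 0.037) were lower, and FZD4 was higher (0.76, adjusted p = 0.00762). Without the untreated library old2 no member was called at either time, with FZD7 at -1.31 (adjusted p = 0.134) at 2 h and -1.38 (adjusted p = 0.0524) at 8 h. The FZD2 call at 8 h was also lost without any 1 of the other untreated libraries or of the 8 h libraries old1 and old3 (adjusted p = 0.0607 to 0.132). Between 8 h and 2 h of auxin edgeR called 0% of the tested genes and no member (95 genes at an unadjusted p under 0.05), and with both auxin libraries old2 left out FZD2 was lower (-1.54, adjusted p = 0.0436) and FZD4 higher (0.83, adjusted p = 0.0198) at 8 h.

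Loss of NUP153 or NUP50, the other nuclear basket proteins, gave no call in any of the 8 genes as tested here. In the NUP153 line FZD7 had 55.9, 52.6 and 48.4 CPM untreated, 64.7, 58.0 and 57.7 CPM at 2 h and 47.0, 49.1 and 45.2 CPM at 8 h. Its 2 h libraries were all above the untreated ones (0.21, SE 0.07), as in 4.53% of all tested genes. Its 8 h group overlapped the untreated one (-0.18, SE 0.07). Neither value passed the threshold, where 0.0225% and 1.32% of all tested genes were called. Between 8 h and 2 h FZD7 was lower (-0.39, SE 0.07, adjusted p = 0.00925), a test without a fold threshold that 3.62% of all tested genes passed, and that FZD7 no longer passed without the 2 h replicate 1 or without the 8 h replicate 3 (adjusted p = 0.063 and 0.0504). In the NUP50 line FZD7 had 37.3, 43.7 and 56.7 CPM untreated, 61.5, 64.8 and 61.9 CPM at 3 h and 55.1, 61.4 and 68.6 CPM at 9 h. The wide untreated group left the increases at 0.46 (SE 0.13, adjusted p = 0.373) and 0.40 (SE 0.14, adjusted p = 0.169), where 0.191% and 0.365% of all tested genes were called; without untreated replicate 3 the 3 h value was 0.66 and passed (adjusted p = 0.0291). The FZD7 increases were also called with no filter on low counts (adjusted p = 0.00200 at 3 h and 0.000953 at 9 h) and in 1 fit over 66 libraries (adjusted p = 0.0239 and 0.0454). At 9 h FZD8 was at 0.59 (SE 0.22, adjusted p = 0.197) and FZD1 at 0.35 (SE 0.18, adjusted p = 0.377). All their auxin libraries were above the untreated ones, as in 12.6% of all tested genes, and so were those of FZD7 at 3 h (5.59%). FZD4 was at -0.33 at 3 h (SE 0.18, adjusted p = 0.863), with all auxin libraries below the untreated ones (6.57%). All other groups overlapped. Of the 8 genes none passed between 9 h and 3 h, where 0.269% of all tested genes did. None had an unadjusted p under 0.05 in this contrast, beside 1413 of all tested genes. At an unadjusted p under 0.05 edgeR had 1 member at 2 h and 1 at 8 h in the NUP153 line. Of the 17812 tested genes 667 and 2459 were under it. In the NUP50 line edgeR had 1 member at 3 h and 2 at 9 h, beside 1095 and 2940 genes. DESeq2 called 1 member, FZD7, at 9 h in the NUP50 line, where it called 154 genes. It called no member at the other times, beside 92 genes (NUP50, 3 h), 38 (NUP153, 2 h) and 389 (NUP153, 8 h).

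**Figure D4:**
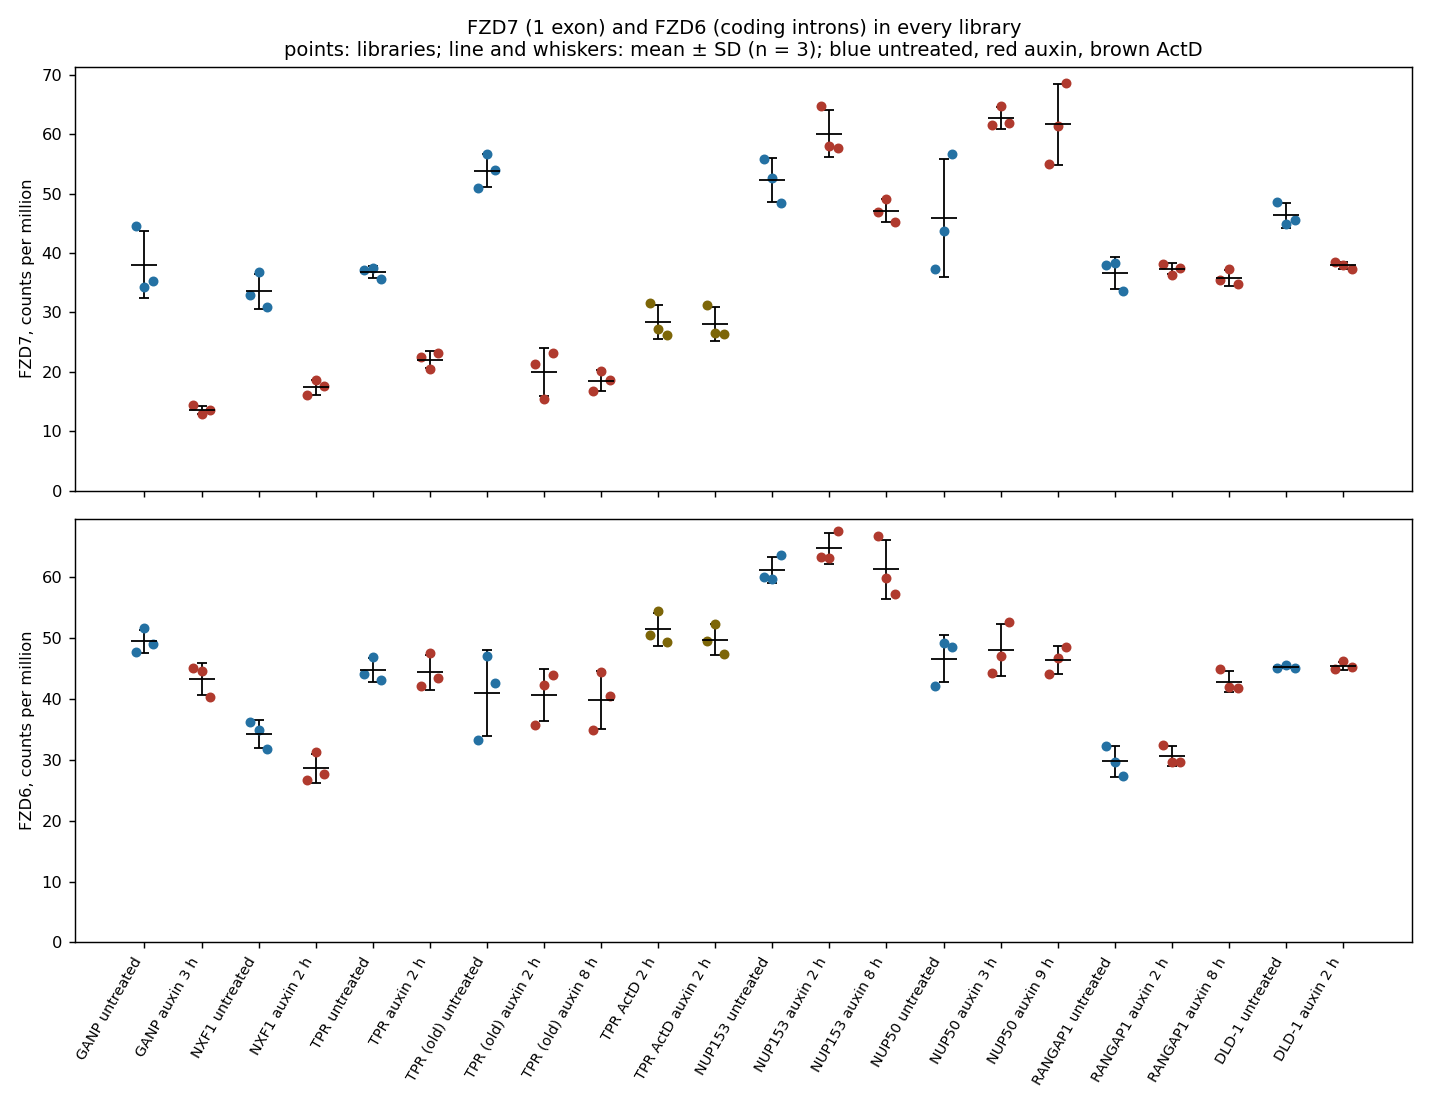
FZD7 (upper panel) and FZD6 (lower panel) in CPM in every library, by group (x axis); points are libraries and the line with whiskers is the mean ± SD (n = 3). FZD7 is at 12.9 to 23.2 CPM in the auxin groups of the GANP, NXF1 and TPR lines without ActD and at 30.9 to 68.6 CPM in every other library without ActD, while FZD6 is set apart from its untreated group by a call in the RANGAP1 line at 8 h (41.8 to 44.9 CPM against 27.3 to 32.2 CPM untreated).

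RANGAP1 loss gave a different pattern. At 2 h no member was called, beside 0.545% of all tested genes, and the log2 fold changes lay from -0.12 to 0.12. No member had an unadjusted p under 0.05 with edgeR, where 1297 of all tested genes did. DESeq2 called no member and 176 genes in all. At 8 h FZD2 was lower, at 3.18, 3.94 and 3.90 CPM against 7.16, 6.06 and 7.28 CPM untreated (-0.85, SE 0.13, adjusted p = 0.000986), and FZD6, a receptor of planar cell polarity, was higher, at 44.9, 41.9 and 41.8 CPM against 32.2, 29.7 and 27.3 CPM (0.57, SE 0.08, adjusted p = 0.000835). Of all tested genes 6.62% were called lower and 8.23% higher at this time. FZD7 had overlapping groups (35.5, 37.4 and 34.7 CPM against 38.0, 38.4 and 33.5 CPM, log2 fold change 0.01, SE 0.08), and FZD5 did not pass (-0.20, SE 0.12). FZD3, which guides axons, had a log2 fold change of -0.30 (SE 0.10, adjusted p = 0.0387), short of the fold threshold. Both called genes also differed between 8 h and 2 h, FZD2 by -0.75 (SE 0.12, adjusted p = 0.00165) and FZD6 by 0.49 (SE 0.08, adjusted p = 0.00242), as 16.4% of all tested genes did. With the replicate block, FZD3 (-0.21, adjusted p = 0.0222) and FZD5 (-0.20, adjusted p = 0.0298) differed between these times as well.

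DLD-1 cells without a degron gave no call, where 0.0561% of all tested genes were called. FZD7 was nevertheless lower in all 3 libraries labelled auxin, at 38.5, 38.0 and 37.4 CPM against 48.6, 44.8 and 45.5 CPM (-0.28, SE 0.05, adjusted p = 0.186, unadjusted p = 0.000371). Of the 5 genes without a coding intron, FZD7 and FZD5 had groups that did not overlap in this direction, and so had FZD3 among the 3 with coding introns (17.3, 17.8 and 18.0 against 18.3, 18.8 and 21.3 CPM), as 4.93% of all tested genes did. The other members lay between -0.13 and 0.20.

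The response of each line was then compared with the others by an interaction term, with an adjusted p under 0.05 and no fold threshold. The FZD7 change on TPR loss was lower than that of the NUP153 line by -0.93 (SE 0.10, adjusted p = 0.00111), of the NUP50 line by -1.18 (SE 0.17, adjusted p = 0.0149), of the RANGAP1 line by -0.78 (SE 0.12, adjusted p = 0.0101) and of DLD-1 cells by -0.44 (SE 0.09, adjusted p = 0.0292), and no other member passed. These tests called 0.646%, 0.124%, 0.298% and 0.825% of all tested genes. At an unadjusted p under 0.05 edgeR had 3, 3, 3 and 4 members, beside 1150, 1756, 1114 and 1697 of all tested genes. They were FZD5, FZD7 and FZD8 in each, with FZD2 added for DLD-1 cells, and all these differences were negative. Leaving out any 1 of 10 of the 12 libraries took the adjusted p of the difference from DLD-1 cells to between 0.053 and 0.121. That difference also rests on the DLD-1 labels, and would be -0.99 with the 2 labels exchanged (not tested). With the replicate block FZD5 in the TPR line also differed from the NUP153 (-0.59, adjusted p = 0.000988) and RANGAP1 lines (-0.44, adjusted p = 0.0167).

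The auxin response of the NXF1 line was lower than that of DLD-1 cells in FZD7 (-0.62, SE 0.10, adjusted p = 0.000804) and FZD5 (-0.54, SE 0.12, adjusted p = 0.00799), where 9.71% of all tested genes differed. The GANP line differed from DLD-1 cells in all 5 genes without a coding intron, by -1.69 (SE 0.29) in FZD8, -1.22 (SE 0.12) in FZD5, -1.09 (SE 0.12) in FZD7, -1.05 (SE 0.23) in FZD1 and -1.01 (SE 0.19) in FZD2, with adjusted p between 7.57e-06 and 0.00454, and in none of the 3 with coding introns; 20.1% of all tested genes differed. With the DLD-1 labels exchanged, the FZD7 difference would be -1.17 for NXF1 and -1.65 for GANP, and the FZD2 difference for GANP -0.62 (not tested). Among the 3 lines that lowered FZD7, TPR was compared with GANP and with NXF1, and GANP was not compared with NXF1. The TPR response was weaker than that of GANP by 1.11 (SE 0.27) in FZD8, 0.90 (SE 0.14) in FZD5, 0.82 (SE 0.21) in FZD1 and 0.67 (SE 0.13) in FZD7 (adjusted p = 0.027, 0.00198, 0.0301 and 0.00777), where 5.77% of all tested genes differed; times were 2 h and 3 h. The differences of FZD5 and FZD7 passed without any 1 library. That of FZD1 was lost without any 1 of 9 libraries (adjusted p = 0.0519 to 0.118) and that of FZD8 without any 1 of 7 (adjusted p = 0.052 to 0.0891) or with no filter on low counts (adjusted p = 0.0542). With the replicate block FZD2 differed as well (0.56, adjusted p = 0.0157). With the old AID-NeonGreen-TPR libraries in place of the first set the FZD7 difference was 0.04 and FZD5 alone was called. No member differed between the TPR and NXF1 responses, where 2.28% of all tested genes did. At an unadjusted p under 0.05 edgeR had no member, beside 2356 of all tested genes.

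With ActD present, no difference between cells with and without auxin was detected in the Frizzled genes. FZD7 had 31.7, 27.3 and 26.2 CPM with ActD and 31.3, 26.5 and 26.3 CPM with ActD and auxin (-0.02, SE 0.10), and the 8 genes lay between -0.12 and 0.20. In this comparison edgeR called 0 of the 17812 genes (78 at an unadjusted p under 0.05), DESeq2 called none of the members, and no member had an unadjusted p under 0.05. The FZD7 response to auxin differed with ActD from that without ActD in the old set by 1.32 (SE 0.18, adjusted p = 0.0217), and FZD7 was 1 of 4 genes (0.0225% of those tested) that did so. Against the first AID-NeonGreen-TPR set this difference was 0.69 (adjusted p = 0.18), and within the old set it passed without the 2 h library old2 (1.19, adjusted p = 0.0108) but not without any 1 of 8 other libraries (adjusted p = 0.057 to 0.127).

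ActD alone was compared with untreated cells of the old set. FZD7 (-0.80, SE 0.11, adjusted p = 0.000805) and FZD5 (-0.55, SE 0.13, adjusted p = 0.014) were lower, beside 12.3% of all tested genes, and FZD3 (0.43, SE 0.12, adjusted p = 0.0275) and FZD6 (0.45, SE 0.13, adjusted p = 0.03) were higher, beside 8.79%. These values are TMM-scaled and relative to the other genes of a library. A loss of RNA common to all genes cannot be seen in them. FZD3 had 58.5, 57.2 and 54.8 CPM with ActD and 38.4, 53.1 and 46.6 CPM untreated. FZD6 had 50.4, 54.5 and 49.3 against 33.3, 47.0 and 42.7 CPM. In both genes the ActD libraries were all higher, as in 11.9% of all tested genes. FZD1 (-0.38, SE 0.18), FZD2 (-0.62, SE 0.23), FZD8 (-0.55, SE 0.28) and FZD4 (-0.32, SE 0.16), which has a coding intron, did not pass. The ActD libraries were all lower in FZD1, FZD2, FZD4, FZD5 and FZD7, as in 28.5% of all tested genes. The calls of FZD5, FZD3 and FZD6 were lost without ActD replicate 1 or without the untreated library old3, and those of FZD3 and FZD6 also without ActD replicate 2 or the untreated library old1 (adjusted p = 0.057 to 0.0765). Scaled by library totals alone, FZD3 was at 0.30 (adjusted p = 0.105) and FZD6 at 0.33 (adjusted p = 0.0988), and neither was called. Against the untreated libraries of the first set, FZD7 was at -0.40 (adjusted p = 0.00352), short of the fold threshold, FZD5 at -0.21, FZD3 at 0.30 and FZD6 at 0.18; the ActD libraries do not carry the label old.

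Genes outside the family can be divided in the same way. Of the tested protein-coding genes, 288 had 1 exon in their canonical transcript and 12849 more than 1. After GANP loss 44.1% of the former and 11.2% of the latter were called lower, after NXF1 loss 18.4% and 6.37%, and after TPR loss 9.03% and 0.311%. In the old set the shares were 7.99% and 0.226% at 2 h and 21.2% and 2.23% at 8 h, and with ActD alone 33.7% and 11.2%. The shares called higher were 12.5% of the 1-exon and 3.36% of the other genes after GANP loss, 1.04% and 1.44% after NXF1 loss, and 0% and 0.0778% after TPR loss. FZD1, FZD2, FZD7 and FZD8 are among the 288, and FZD5 among the 12849. The RANGAP1 line also had a higher share of 1-exon genes called lower at 8 h (19.4% against 4.54%), of which FZD2 was the 1 Frizzled gene. With fewer calls, so had the NUP50 line at 9 h (3.82% against 0.0856%) and at 3 h (1.04% against 0%), the NUP153 line at 8 h (1.39% against 0.459%), the RANGAP1 line at 2 h (0.694% against 0.0467%) and DLD-1 cells (0.347%, or 1 gene, against 0.0623%). In the NUP153 line at 8 h, however, more 1-exon genes were called higher (4.86%, against 0.646% of the others) than lower. The shares called higher were 7.99% and 9.37% in the RANGAP1 line at 8 h and 0.694% and 0.529% at 2 h. They were 0.694% and 0.249% in the NUP50 line at 9 h, 0.347% and 0.218% at 3 h, and 0% in both classes in DLD-1 cells. The median log2 fold change of the 1-exon genes was -0.44 in the GANP, -0.17 in the NXF1 and -0.25 in the TPR comparison, nearer to 0 than that of the 5 Frizzled genes (-1.34, -0.65 and -0.45).

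**Figure D5:**
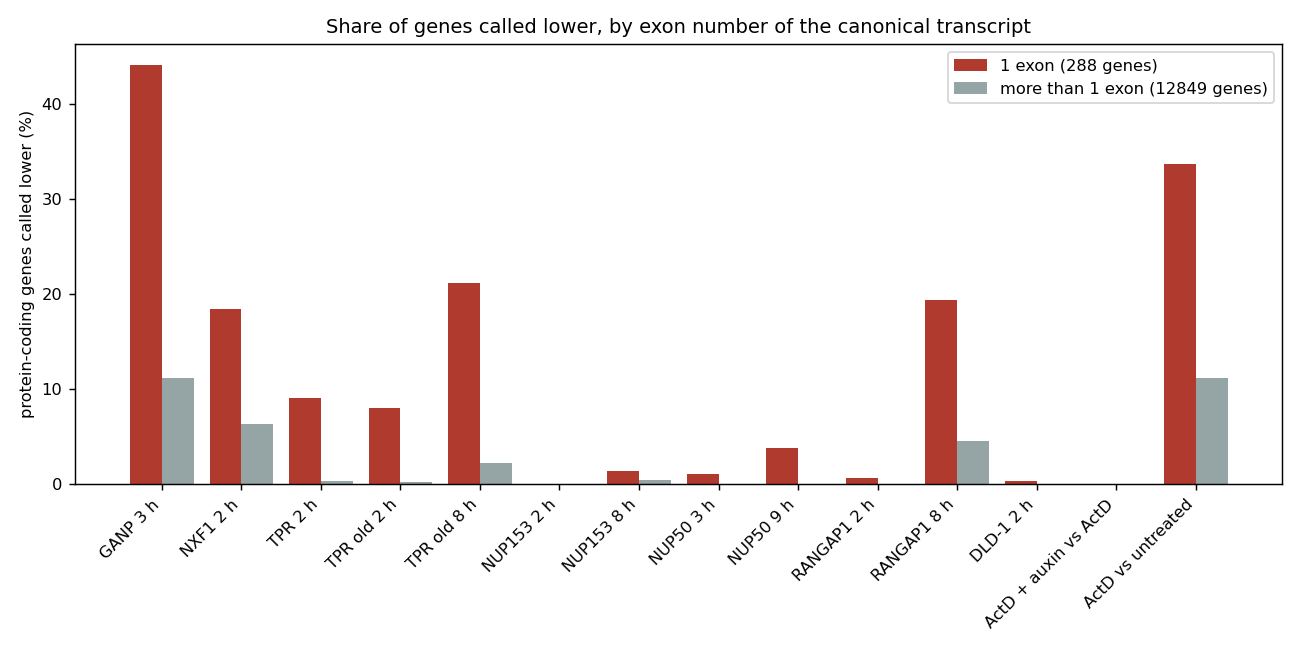
Percent of tested protein-coding genes called lower (y axis) in each of 14 comparisons (x axis), for 288 genes with 1 exon and 12849 genes with more than 1 exon in the canonical transcript. The share is higher for 1-exon genes in the GANP (44.1% against 11.2%), NXF1, TPR and RANGAP1 comparisons and for ActD against untreated cells (33.7% against 11.2%). With fewer calls it is also higher in the NUP50 comparisons (3.82% against 0.0856% at 9 h), in NUP153 at 8 h and in DLD-1 cells. It is 0% in both classes for ActD with auxin against ActD.

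Of 85 listed genes of the Wnt pathway outside the family 62 were tested. After GANP loss 6 (9.68%) were called lower and 6 higher, where 11.5% of all tested genes were lower and 3.93% higher. The lower ones were RNF43 (log2 fold change -1.21), which removes Frizzled receptors from the membrane, the ligands WNT5B (-1.28) and WNT3 (-0.64), the FZD4 ligand gene NDP (-1.13), the polarity gene VANGL2 (-1.13) and PYGO2 (-1.24), a nuclear partner of beta-catenin complexes. The higher ones were the co-receptor genes LRP5 (0.46) and ROR1 (0.58), the ligand WNT2B (0.50), the scaffold genes AXIN2 (0.61) and APC2 (0.62) and the corepressor TLE4 (0.47). After NXF1 loss 4 were lower (RNF43, -0.91; VANGL2, -0.96; PYGO2, -0.73; WNT3, -0.66), or 6.45% beside 5.93% of all tested genes, and 0 higher. After TPR loss PYGO2 was the 1 gene called (-0.53), and in the old set 0 were called at 2 h and PYGO2 (-1.64) and NDP (-1.05) were lower at 8 h. The NUP153 line, the NUP50 line at 3 h and DLD-1 cells had 0 calls in the list. APC2 (1.11) was higher in the NUP50 line at 9 h and TLE4 (0.51) in the RANGAP1 line at 2 h, and at 8 h the latter had 7 higher (11.3%, beside 8.23% of all tested genes) and 5 lower (8.06%, beside 6.62%), among them the ligand WNT5A (1.56) and VANGL2 (-1.03). With ActD alone 10 were lower (16.1%, beside 12.3% of all tested genes), among them the Wnt target genes AXIN2 (-2.27) and LGR5 (-1.23), and RNF43 (-1.03) and ZNRF3 (-0.69); 4 were higher (6.45%, beside 8.79%), and none differed between ActD with and without auxin.

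Across the 36 auxin libraries, each expressed relative to the untreated mean of its own line, the genes whose log2 ratios followed FZD7 most closely among 14632 genes were MIEF2 (Pearson r = 0.948), ZNF784 (0.944) and C1orf74 (0.943), which have 4, 2 and 2 exons. Within the family FZD8 (r = 0.930), FZD1 (0.885) and FZD5 (0.827) followed FZD7, FZD2 less (0.661), and FZD6 (0.414), FZD3 (0.326) and FZD4 (-0.374) least. The genes most like FZD6 were NUDT19 (0.869), TCAF1 (0.864) and RCOR1 (0.857). These values are descriptions, since libraries of a line share their untreated group.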

How the data were processed

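RNA was isolated from DLD-1 cells, rRNA was depleted (Ribo-Zero Gold; the labels name a TruSeq Standard and the study's methods a TruSeq Stranded kit) and libraries were sequenced. The deposited values are whole-number read counts per Ensembl gene, 1 table per library, which the authors made with STAR and featureCounts on GRCh38; the submitters' processing notes name CASAVA 1.8.2, STAR 2.6.1c and featureCounts 1.5.2. Strand and overlap settings of the counting are not given in the sources used here. Groups were taken from the labels. The 8 members and the list of Wnt pathway genes were chosen with earlier results of these data known. Genes with more than 1 CPM in at least 4 of the 60 libraries without ActD were kept (17812 of 58051 genes, with at least 99.76% of the counts of each library). Counts were scaled by TMM and tested with edgeR 4.0.16 (quasi-likelihood F test, R 4.3.3), separately for each line and label set, with Benjamini-Hochberg adjustment over the tested genes. A gene that passed in DLD-1 cells without a tag was not counted as called in a tagged line without ActD, which concerned 1 to 8 genes per comparison. The standard error is the absolute log2 fold change divided by the square root of F. Time points and lines were compared by contrasts and interaction terms. Exons, overlaps and sequences were read from GRCh38 and GENCODE release 44 (56948 of 58051 identifiers matched) with Python 3.11.15, and sequences are those of that genome. Named genes were the 8 members, the Wnt list genes that were called, and the 3 genes most like FZD7 and FZD6.

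The replicate numbers are shared between groups. The deviations of same-numbered libraries from their group means correlated above 0.1 in all 3 pairs in 7 of the 13 comparisons checked: GANP, NXF1, TPR 2 h, NUP153 2 h, RANGAP1 2 h and 8 h, and ActD with auxin against ActD (r from 0.235 to 0.913). Alternatives were the replicate block, RLE scaling, library totals alone, no filter, filterByExpr, DESeq2 1.42.0, a fit over all 66 libraries, a fold of 1.3 in both directions, other AID-TPR libraries and each library left out. No library pair of a group agreed within sampling noise (chi-square per degree of freedom 4.07 to 67.4 over 66 pairs). The scripts were tested on simulated data. Depth limits the precision most for FZD8 (14 to 214 counts per library).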

Additional observations from a re-analysis of the deposited data

Results flagged for a closer look

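A difference in response between lines or times passed its own test (edgeR's quasi-likelihood test, Benjamini-Hochberg) for 19 gene and contrast pairs, all with 3 libraries a group. Groups of 3 are too small for a test of single outlying libraries.

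FZD7 accounted for 9 of them. Its auxin response in the TPR line differed from that in the NUP153 line (-0.93 on the log2 scale), the NUP50 line (-1.18), the RANGAP1 line (-0.78), DLD-1 cells (-0.44) and the GANP line (0.67). It also differed between the NXF1 line and DLD-1 cells (-0.62) and between the GANP line and DLD-1 cells (-1.09), and between auxin with ActD and auxin without ActD (1.32). The last was its change from 2 h to 8 h in the NUP153 line (-0.39).

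FZD5 differed between the NXF1 line and DLD-1 cells (-0.54), between the GANP line and DLD-1 cells (-1.22) and between the TPR and GANP lines (0.90). FZD8 (-1.69), FZD1 (-1.05) and FZD2 (-1.01) differed between the GANP line and DLD-1 cells, and FZD8 (1.11) and FZD1 (0.82) between the TPR and GANP lines. In the RANGAP1 line FZD2 (-0.75) and FZD6 (0.49) changed from 2 h to 8 h. The libraries labelled auxin of DLD-1 cells enter 8 of these values, and their CYP1A1 levels were opposite to those of the tagged lines. With the DLD-1 labels exchanged, an alternative chosen after seeing the data, the FZD7 differences from DLD-1 cells would be -0.99 (TPR), -1.17 (NXF1) and -1.65 (GANP) and that of FZD2 -0.62 (GANP), while the other 4 would move by less than 1.5 times; these values were not tested.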

How the results depend on the processing

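Of the 38 member values that were called, none changed sign under any alternative. Of 3112 member values under the alternatives 2921 kept the sign, and the other 191 were not called in either fit, with a size of at most 0.561 in the reported fit (FZD2, TPR minus GANP, 0.56, and -0.28 with the old AID-TPR libraries). RLE scaling, filterByExpr and a fold of 1.3 in both directions moved no count of called members by over 1.5 times. Library totals alone shifted the members by a median of -0.106 (GANP), -0.1 (old set, 2 h), -0.131 (old set, 8 h) and -0.127 (ActD), and by less elsewhere.

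Counts of called members moved as follows, and where no value or construction shows why, the cause was not tested. With the replicate block they were 2 (reported 1) in TPR at 2 h, 4 (2) in the old set at 8 h, 1 (0) in NUP50 at 3 h and 1 (0) at 9 h, 4 (2) between 8 h and 2 h in RANGAP1, 2 (1) for TPR minus NUP153, 3 (1) for TPR minus NUP50, 2 (1) for TPR minus RANGAP1, 4 (2) for NXF1 minus DLD-1 and 2 (1) for the ActD interaction; no other call count moved by over 1.5 times. The numbers did not pair the libraries in the old set, NUP153 at 8 h, NUP50 and DLD-1. The block added FZD7 in NUP50 (0.48, adjusted p = 0.0302, at 3 h and 0.42, adjusted p = 0.000186, at 9 h), FZD5 (-0.63, adjusted p = 0.0194) and FZD8 (-1.05, adjusted p = 0.0465) for TPR minus NUP50, FZD1 (-0.52, adjusted p = 0.0306) and FZD6 (-0.22, adjusted p = 0.0288) for NXF1 minus DLD-1, and FZD8 (1.34, adjusted p = 0.0492) for the ActD interaction. Without a filter on low counts the numbers were 3 (old set, 2 h), 1 (NUP50, 3 h), 1 (NUP50, 9 h) and 0 (TPR minus DLD-1). DESeq2 called 2 in the old set at 2 h and 1 in NUP50 at 9 h. One fit over 66 libraries called 4 in the old set at 2 h, 5 at 8 h, and 1 in NUP50 at 3 h and at 9 h. All 6 pairs of AID-TPR libraries gave 2, adding FZD8 (-0.91, adjusted p = 0.00632). The first AID-TPR set in place of the old gave 1 for ActD against untreated (FZD4, across library sets) and 0 for the ActD interaction, and the old set in place of the first gave 1 for TPR minus GANP. Leaving out both auxin libraries old2, an alternative chosen after seeing the data, gave 2 for 8 h against 2 h.

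With each library left out in turn the counts ranged from 2 to 4 (NXF1), 0 to 1 (old set, 2 h), 0 to 6 (old set, 8 h), 0 to 1 (NUP50, 3 h), 1 to 4 (ActD against untreated), 0 to 1 (NUP153, 8 h against 2 h), 1 to 2 (TPR minus NUP153), 0 to 1 (TPR minus NUP50), 0 to 1 (TPR minus DLD-1), 2 to 3 (NXF1 minus DLD-1), 2 to 4 (TPR minus GANP) and 0 to 1 (ActD interaction). They stayed at 5 (GANP), 1 (TPR, 2 h) and 2 (RANGAP1, 8 h). Over all genes the calls of the TPR comparison ranged from 81 to 457 (reported 85) under the alternatives and from 19 to 57 with a library left out, those of the old set at 8 h from 5 to 3733 (reported 639) with a library left out, and those of GANP from 2389 to 3410 (reported 2752) under both. Depth limits FZD8 most, which had 14 to 17 counts in the GANP auxin libraries.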
